A study of Mus musculus with 2 samples.

Results

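Wnt2, Wnt9b, Rspo3, Bmp2, Hgf and Kit are 6 of the 32285 genes counted in both single-cell libraries, taken by their gene symbols as the secreted Wnt, R-spondin, BMP and HGF signals of the liver endothelium and an endothelial receptor. The 2 libraries hold liver non-parenchymal cells, that is the cells other than hepatocytes, of male mice aged 5 months and fed chow, captured after collagenase digestion with a droplet method that tags the 3′ end of transcripts and counts molecules as UMIs (unique molecular identifiers). The library labelled Hep-ADKTg comes from mice in which the albumin promoter, active in hepatocytes, drives extra adenosine kinase (Adk), and the library labelled Hep-ADKWT from control mice, with no further treatment in either. They are called Tg and WT here, and values given as a pair are those of WT and then Tg. Each group is 1 library, the labels do not say whether it holds 1 mouse or several, and genotype, animal, preparation and library cannot be told apart. Intervals are 95% intervals for counting error only, and no p-value is given. The transgene cannot be read from these tags with certainty. Adk stood at 461 (438–484) and 522 (514–529.6) CPM (UMIs of the gene per 1000000 UMIs of the class) in hepatocyte-like cells, at 453 (429–478) and 523 (514–532) CPM in the deepest cluster of them and at 528 (451–615) and 507 (489–526) CPM in another, so it is no firm check of the labels, and the libraries are named as labelled.

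In the liver lobule, blood enters at the portal tract and leaves through the central vein. Endothelial cells of the central vein and the neighbouring sinusoids secrete Wnt ligands, among them Wnt2 and Wnt9b, and the R-spondin Rspo3, which raises the number of Wnt receptors on the cell surface by removing the ligases that clear them. Together these signals keep pericentral hepatocytes, with enzymes such as glutamine synthetase (Glul) and Cyp2e1, distinct from periportal ones. Bmp2 from sinusoidal endothelial cells acts with Bmp6 on hepatocytes to induce hepcidin (Hamp), the hormone that limits iron uptake. Hgf, known in the liver above all from stellate cells, binds the receptor Met on hepatocytes, and Kit, the receptor of stem cell factor (Kitl), marks mast cells and progenitors and is used as a marker of pericentral sinusoidal endothelium.

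The genes lie apart in the genome (GRCm38 coordinates from GENCODE M21): Wnt2 (ENSMUSG00000010797) on chromosome 6, 17988940–18030585, Wnt9b (ENSMUSG00000018486) on chromosome 11, 103727364–103749821, Rspo3 (ENSMUSG00000019880) on chromosome 10, 29452416–29535867, Bmp2 (ENSMUSG00000027358) on chromosome 2, 133552159–133562885, Hgf (ENSMUSG00000028864) on chromosome 5, 16553495–16620152 and Kit (ENSMUSG00000005672) on chromosome 5, 75574916–75656722. All are protein coding. Rspo3 is overlapped by 1 predicted gene on its own strand and 1 antisense gene, and Hgf by 2 predicted genes on its own strand, whose reads cannot be told apart from theirs where exons coincide. Promoters are shown for Wnt2 and Kit, which were both lower in the sinusoidal cells of Tg, and for Wnt9b, which was highest in the large-vessel cells; each, at the table's start nearest to GENCODE's (140 bases away for Wnt2, 71 for Kit and 0 for Wnt9b), runs from 250 bases before to 50 bases after the transcription start (RefSeq, GRCm38.p6), 5′ to 3′ on the gene's strand. Capitals mark GATAA or its reverse complement, the core recognised by GATA factors such as Gata4, which stood at 248 and 197 CPM in sinusoidal cells. They cover chr6:18030396-18030695 (minus strand, Wnt2), chr5:75574737-75575036 (plus strand, Kit) and chr11:103749772-103750071 (minus strand, Wnt9b).
Wnt2: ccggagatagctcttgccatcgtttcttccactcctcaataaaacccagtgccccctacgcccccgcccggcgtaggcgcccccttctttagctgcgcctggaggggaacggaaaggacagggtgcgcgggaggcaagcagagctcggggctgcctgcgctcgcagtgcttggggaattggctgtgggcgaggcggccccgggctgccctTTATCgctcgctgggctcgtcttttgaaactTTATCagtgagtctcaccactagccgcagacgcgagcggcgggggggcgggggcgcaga
Kit: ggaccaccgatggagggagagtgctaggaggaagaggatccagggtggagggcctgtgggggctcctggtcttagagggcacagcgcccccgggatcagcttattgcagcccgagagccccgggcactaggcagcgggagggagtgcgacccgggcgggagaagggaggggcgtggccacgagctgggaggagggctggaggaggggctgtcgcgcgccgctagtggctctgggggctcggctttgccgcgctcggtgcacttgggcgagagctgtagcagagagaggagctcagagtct
Wnt9b: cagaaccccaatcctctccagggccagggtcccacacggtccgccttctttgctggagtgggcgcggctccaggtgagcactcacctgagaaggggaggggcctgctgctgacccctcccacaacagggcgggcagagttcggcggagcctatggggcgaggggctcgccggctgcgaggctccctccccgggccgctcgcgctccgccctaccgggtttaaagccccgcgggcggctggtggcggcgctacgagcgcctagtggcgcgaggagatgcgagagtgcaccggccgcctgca
The Wnt2 window holds 2 matches to GATAA, both on the reverse strand, and the windows of Kit, Wnt9b and Hgf none; 25.4% of 32817 promoters of that length hold at least 1 match on either strand and 5.27% hold 2 or more. Searched in the same way, TATAAA (in 13.6% of promoters), CCGGAA, a core of ETS factors (14.9%), and CTTTGA, a core of TCF factors (16.0%), had no match in any of these 4 windows. GC content was 65.7% for Wnt2, 69.0% for Kit and 71.7% for Wnt9b, against a median of 52.7% over all promoters. A match is a run of letters and not evidence of binding. Rspo3 and Bmp2 are not shown.

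The libraries held 97135016 and 96481752 UMIs in 15663 and 17462 barcodes, of which 12482 and 14449 were kept, with medians of 4807 and 2785 UMIs; 58 kept barcodes occur in both. Cells were clustered with the 6 genes left out, so that none of them chose a class, and classes are called by their markers and are "-like" throughout. Sinusoidal endothelial cells numbered 1692 and 2510 and held all 12 sinusoidal markers, summing to 23789 and 19567 CPM. They fell into 4 clusters that split by library: clusters 7 and 19 held 1155 and 421 WT but 40 and 6 Tg cells, and clusters 4 and 9 held 1418 and 1046 Tg but 76 and 40 WT cells. Clusters 9 and 19 were shallow, with medians of 892 and 781 UMIs in the libraries that fill them. Endothelial cells with markers of veins or large vessels, called large-vessel cells here, numbered 39 and 149, in 2 clusters of unlike kind. Cluster 29 (21 and 114 cells) carried Selp (427 and 545 CPM) and Cdh13 (977 and 866 CPM), and cluster 34 (18 and 35 cells) carried Ltbp4 (1653 and 1041 CPM) and Efnb2 (187 and 211 CPM), a gene of arterial endothelium, and had Lyve1, a gene of sinusoidal and lymphatic endothelium, among its 10 leading genes. With 8.52 and 14.1 CPM of Selp, a gene of venous endothelium, cluster 34 does not carry a venous name, so the pooled class is not called venous. Hepatocyte markers summed to 2535 and 15883 CPM in sinusoidal and to 2332 and 9585 CPM in large-vessel cells, so the Tg endothelial sums carry more hepatocyte RNA; its part in the results below was not tested beyond the totals without hepatocyte-enriched genes given there.

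Wnt2 stood at like levels in both endothelial classes and lower in the other classes. In the classes as built its level was 551 (534–568) and 377 (363–392) CPM in sinusoidal and 520.4 (436–617) and 398 (355–444) CPM in large-vessel endothelial cells, levels that overlap within each library. A Wnt2 UMI was found in 66.3% and 44.9% of sinusoidal cells but in 0.358% and 0% of B cells, which should lack it (median depths 4530 and 2479 against 3578 and 3154 UMIs). The next classes were fibroblast or mesothelial cells (93.1 and 54.7 CPM), cholangiocytes (57.2 and 81.6 CPM) and stellate cells (51.7 and 118 CPM), and hepatocytes held 0 and 29 UMIs. In those 3 classes the Wnt2 count was close to what their sinusoidal marker UMIs would bring along at the ratio seen in sinusoidal cells of the same library. In fibroblasts 170 and 48 UMIs were counted against 156 and 36.0, in cholangiocytes 31 and 88 against 43.6 and 75.7, and in stellate cells 9 and 86 against 11.3 and 98.9.

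Wnt9b and Rspo3 were highest in the large-vessel class. Wnt9b stood at 395 (322–480.2) and 374 (333–419) CPM there and at 35.4 (31.2–40.0) and 35.8 (31.5–40.4) CPM in sinusoidal cells, and each other named class held at most 12 of its UMIs. Rspo3 stood at 3044 (2834–3266) and 4519.9 (4374–4669) CPM in large-vessel cells, followed by stellate cells with 798 (671–942) and 812 (748–880.3) CPM and sinusoidal cells with 155 (146–165) and 189.8 (179.8–200.2) CPM. In stellate cells 139 and 590 Rspo3 UMIs were counted where sinusoidal markers would bring 3.20 and 49.7, and 41.3% and 53.6% of stellate cells held one. Rspo3 RNA from large-vessel cells is not part of those expected counts, and its share was not tested. In Tg monocyte-like cells, 119 Rspo3 UMIs lay in 6 of 321 cells and in WT there were none, so that value rests on few cells.

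Bmp2 followed the sinusoidal class: 2518 (2481–2554) and 2530.1 (2493–2567) CPM there, 571 and 493 CPM in large-vessel cells, and a UMI in 84.9% and 72.6% of sinusoidal cells. In stellate cells, cholangiocytes and fibroblasts it stood between 235 and 1002 CPM, and the counts were again close to those that sinusoidal marker UMIs would bring, 41 against 51.9 and 728 against 663 in stellate cells of WT and Tg. The pairs were 168 against 199 and 540 against 507 in cholangiocytes, and 629 against 713 and 281 against 241 in fibroblasts. Kit, the only receptor among the 6, was likewise sinusoidal, at 838 (817–859) and 585 (568–604) CPM, with 321 and 302 CPM in large-vessel cells. Outside the endothelium Kit stood at 155 and 204 CPM in stellate cells, 58.6 and 275 CPM in basophils or mast cells, 109 and 43.3 CPM in fibroblasts, 83.0 and 108 CPM in cholangiocytes and 32.2 (27.0–38.1) and 43.2 (36.3–51.0) CPM in monocytes or monocyte-derived macrophages, where 135 and 139 UMIs in 16.5% and 21.5% of cells compare with 31.4 and 28.5 that sinusoidal markers would bring. In stellate cells 27 and 148 UMIs of Kit compare with 17.3 and 153. In the basophil or mast cell class, where Kit is known from mast cells, its UMIs lay in 1 cell of each library, with 16 UMIs in each.

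Hgf stood high in cells of unlike kind. Its level was 477 (379.6–591) and 877 (810.0–948) CPM in stellate cells, 516 (434–609) and 549 (376–776) CPM in basophils or mast cells and 74.1 (68.0–80.6) and 85.2 (78.5–92.3) CPM in sinusoidal cells. The stellate and basophil intervals overlap in WT, and in Tg the stellate interval lies above that of the basophils. The Tg basophil level rests on 15 cells, under the minimum of 20 set for a class. Its interval does not cover the sampling of those cells, so the order in Tg is not firm. A Hgf UMI was present in 50 of 60 and 14 of 15 basophils or mast cells (83.3% and 93.3%), a class in which sinusoidal markers would bring less than 1 UMI, against 0.0448% and 0.218% of B cells. Large-vessel cells held 6 and 8 UMIs, or 23.5 and 9.94 CPM, and Kupffer cells 15.6 and 36.2 CPM.

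**Figure D1:**
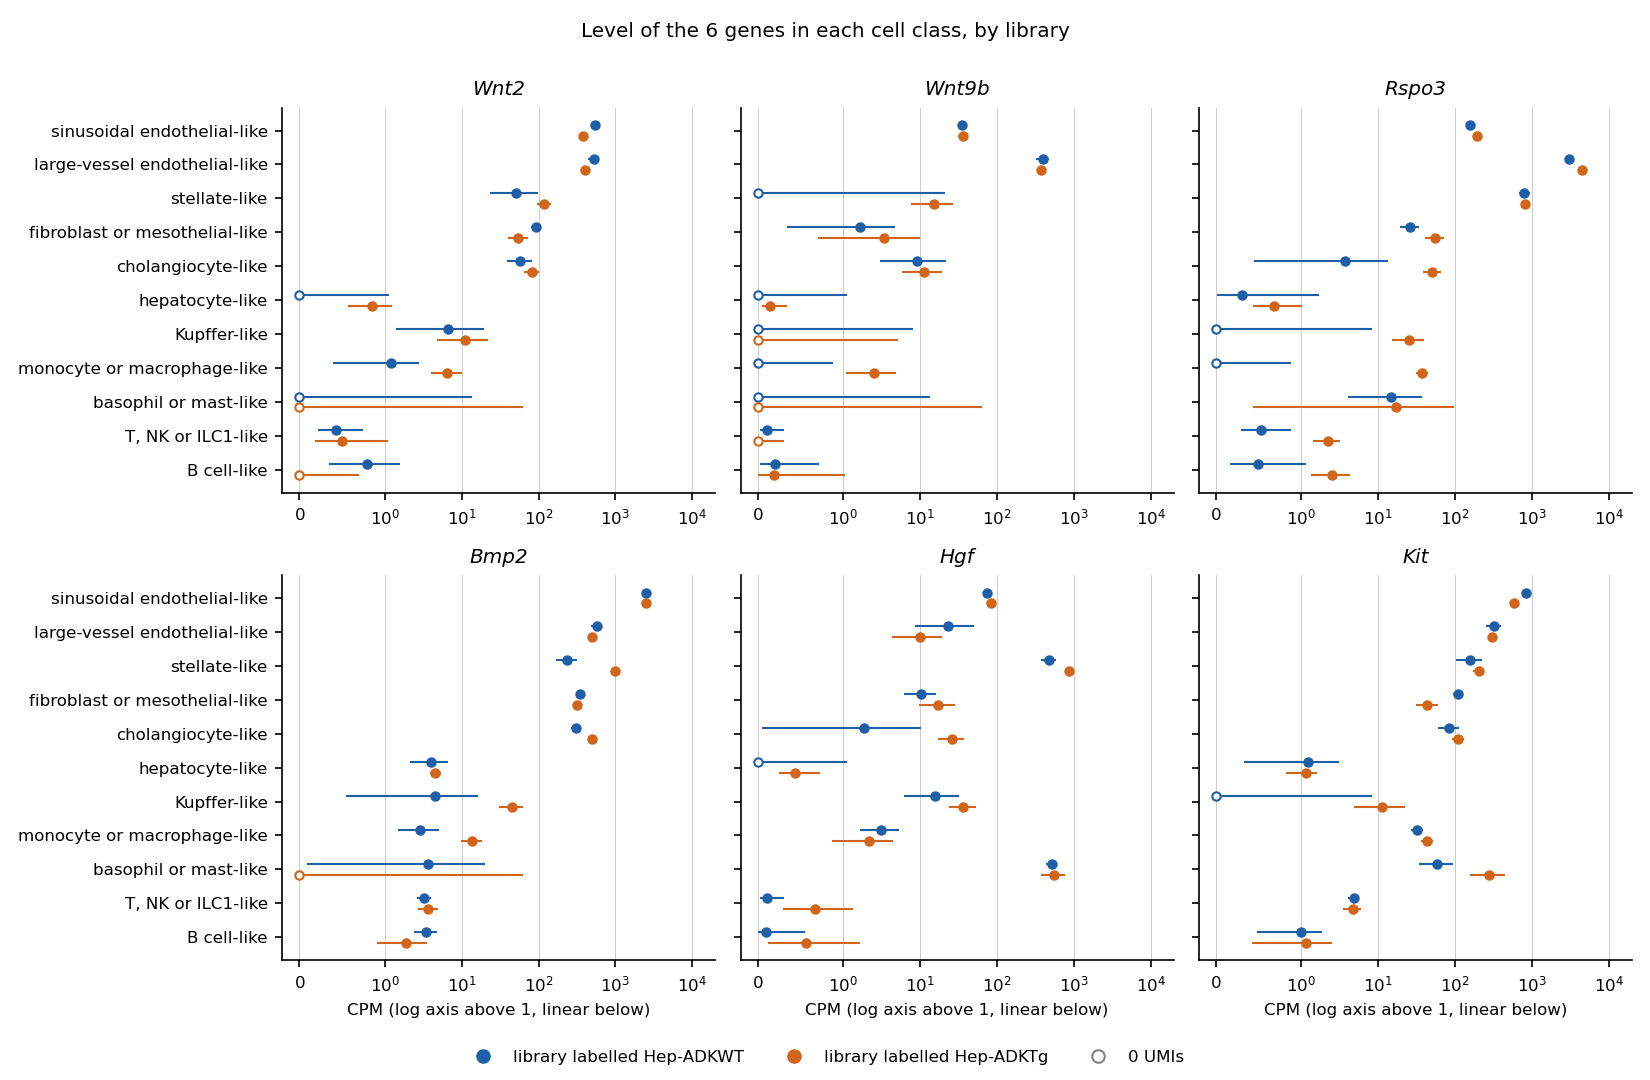
Level of each gene in 11 cell classes as CPM of the class total (log axis above 1, linear below), by library; bars are 95% Poisson intervals for counting error and open points mark 0 UMIs. Wnt9b and Rspo3 are highest in large-vessel endothelial cells and Bmp2 and Kit in sinusoidal cells. Wnt2 stands at like levels in the sinusoidal and the pooled large-vessel class. Hgf is highest in stellate cells and in basophils or mast cells, the latter from 15 cells in Tg.

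A gene's molecules are shared out by level and by class size, and Rspo3, Wnt9b and Hgf were less confined to sinusoidal cells than Wnt2, Bmp2 and Kit. Of all Wnt2 UMIs in kept cells, 90.7% and 80.7% lay in sinusoidal cells, as did 93.4% and 88.1% of Bmp2 and 89.3% and 81.6% of Kit. For Rspo3 the sinusoidal share was 53.0% and 22.8% and the large-vessel share 36.5% and 61.7%; for Wnt9b these were 69.3% and 42.2%, and 27.2% and 50.3%. Of Hgf, sinusoidal cells held 64.5% and 43.0%. The stellate share of Hgf differed most between the libraries: stellate cells held 9.95% of its UMIs in WT and 45.5% in Tg, and basophils or mast cells 16.9% and 2.28%. These shares follow the numbers of cells recovered as well as the levels: stellate cells numbered 46 and 153, large-vessel cells 39 and 149, and basophils or mast cells 60 and 15, and cell numbers after digestion have no replicate.

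**Figure D2:**
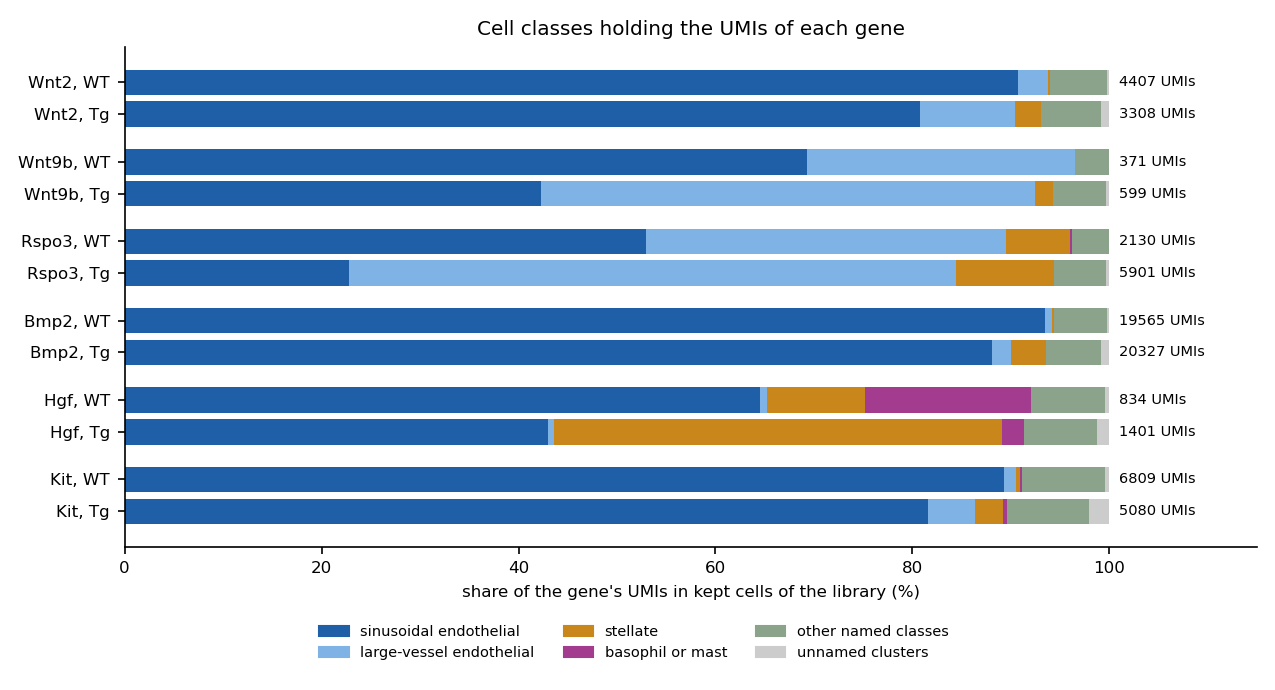
Share of each gene's UMIs (%) held by each cell class in the kept cells of a library (WT, Hep-ADKWT; Tg, Hep-ADKTg), with the number of UMIs at the right. Large-vessel cells hold 61.7% of Rspo3 and 50.3% of Wnt9b UMIs in Tg, and stellate cells 45.5% of Hgf UMIs.

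Set against sinusoidal cells of the same library, large-vessel cells had more Rspo3 and Wnt9b, Wnt2 within counting error, and less Bmp2, Hgf and Kit. Rspo3 was 19.6-fold (17.9–21.5) higher in WT and 23.8-fold (22.4–25.4) higher in Tg, and Wnt9b 11.2-fold (8.78–14.1) and 10.5-fold (8.82–12.4). Thus 2 of 6 genes were at least 1.5-fold higher in large-vessel cells of each library, where 15.5% (WT) and 12.4% (Tg) of all genes with at least 50 UMIs were. Bmp2 was 4.41-fold (3.74–5.22) and 5.13-fold (4.64–5.68) lower, Kit 2.61-fold (2.10–3.29) and 1.94-fold (1.70–2.22) lower and Hgf 3.16-fold (1.44–8.64) and 8.57-fold (4.32–19.9) lower, the last from 6 and 8 large-vessel UMIs. These are 3 of 6 genes lower, against 26.4% and 18.5% of all genes. Hgf passed the minimum of 50 UMIs only through sinusoidal cells, so that filter sets its place in the count. Wnt2 stood at a ratio of 0.945 (0.789–1.12) and 1.05 (0.935–1.18), within counting error of equal levels in both libraries, for a pool of 2 clusters that differed in Wnt2. These ratios moved with the choice of classes. Once the 6 genes were allowed among the variable genes, the log2 ratio of Wnt2 was 0.74 in WT and 0.80 in Tg, past 1.5-fold, that of Kit turned to 0.29 and 0.19, and that of Bmp2 shrank from −2.14 and −2.36 to −0.96 and −1.0, while Rspo3 stood at 5.26 and 6.07 and Wnt9b at 4.26 and 4.39. The direction for Hgf in WT turned, to 0.55, with thinned cells.

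The pooled large-vessel values hide 2 unlike clusters. In cluster 29, the one with Selp, Rspo3 stood at 5599.9 (5212–6009) and 5465 (5289–5646) CPM and every one of its cells held an Rspo3 UMI, whereas cluster 34, the Ltbp4-bearing one, had 34.1 (9.29–87.3) and 113 (64.3–183) CPM, from 4 and 16 UMIs. The ratio between the clusters was 164 (63.9–604) in WT and 48.6 (29.9–85.1) in Tg. Wnt9b stood at 731 and 453 CPM in cluster 29 and had 0 and 1 UMI in cluster 34, at least 28.6-fold lower in WT against a floor of 3 counts over the cluster and with a ratio of 64.4 (11.5–2551) in Tg. Wnt2, with 955 and 481 CPM in cluster 29, had 1 UMI in cluster 34 of each library. In cluster 29 its intervals lay above those of sinusoidal cells in both libraries. Kit stood at 593 and 362 CPM in cluster 29 and had 0 and 3 UMIs in cluster 34, at least 23.2-fold lower in WT. Bmp2 was 3.02-fold (2.03–4.63) and 4.27-fold (2.70–7.17) higher in cluster 29. Wnt2, Wnt9b, Rspo3 and Kit passed the minimum of 50 UMIs only through cluster 29, so their number is set by that filter and nothing is read from it; 25.2% (WT) and 21.8% (Tg) of all genes were higher there. Between the libraries, cluster 34 had enough UMIs for Bmp2 alone, at 273 (187–385) and 134 (80.5–209) CPM, so 1 of 1 gene tested was lower in Tg (17.8% of all genes lower, 20.3% higher). Hgf had 2 and 1 UMIs in cluster 29 and 4 and 7 in cluster 34, too few to order. Cluster 29 was 1.21% and 4.29% of endothelial cells and cluster 34 1.04% and 1.32%, so pooled large-vessel levels weigh cluster 29 more in Tg.

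Within the sinusoidal class, 5 of the 6 genes were graded along the lobule axis that landmark genes mark. Cells of each library were divided into 3 bands of equal size by a score of 5 pericentral minus 8 periportal endothelial landmark genes, none of them among the 6; a band is a range of the score and not a cell type, and cells near its edges could fall on either side. Median depths of the periportal-type and pericentral-type bands were 3457 and 5216 UMIs in WT and 2668 and 3372 UMIs in Tg. From the periportal-type to the pericentral-type band, Rspo3 ran from 7.16 over 44.0 to 353 CPM in WT and from 14.6 over 46.8 to 428 CPM in Tg, that is 49.2-fold (29.7–88.3) and 29.4-fold (21.2–42.0). Wnt9b ran from 7.16 over 17.9 to 70.0 CPM and from 4.72 over 15 to 75.3 CPM, 9.78-fold (5.79–17.8) and 15.9-fold (8.94–31.3). Both sizes moved with the processing: over 12 alternatives the log2 ratio of Rspo3 ran from 4.33 to 6.17 in WT and from 3.06 to 6.69 in Tg, and that of Wnt9b from 2.09 to 3.88 in WT and from 2.96 to 5.06 in Tg, all above 0. Cluster 29 was not placed on this score, and both genes stood higher there than in any band. Wnt2 was shallower, from 348 over 536 to 710.2 CPM in WT and from 213 over 321 to 556 CPM in Tg, that is 2.04-fold (1.87–2.22) and 2.61-fold (2.36–2.88). Kit followed it, 2.45-fold (2.28–2.64) and 2.16-fold (2.0–2.33) higher in the pericentral-type band.

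Hgf ran the other way. It went from 103 (89.4–117) to 48.8 (41.0–57.5) CPM in WT and from 129 (116–144) to 54.7 (46.5–64.0) CPM in Tg, 2.10-fold (1.69–2.62) and 2.37-fold (1.95–2.88) lower in the pericentral-type band. Bmp2 was flat between the outer bands, with ratios of 1.03 (0.989–1.06) and 1.02 (0.986–1.05). In each library 4 of 6 genes were at least 1.5-fold higher in the pericentral-type band, against 4.76% (WT) and 3.98% (Tg) of all genes tested. Lower there was 1 of 6, against 3.43% and 2.45%. Rspo3 and Wnt9b passed the minimum number of UMIs only through the pericentral-type band. That filter sets their place in the count, so nothing is read from their part of it. The middle band was the least certain: in Tg, 370 of its 837 cells had no landmark UMI at all and its median depth was 1068 UMIs, against 30 of 564 cells and 4033 UMIs in WT.

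**Figure D3:**
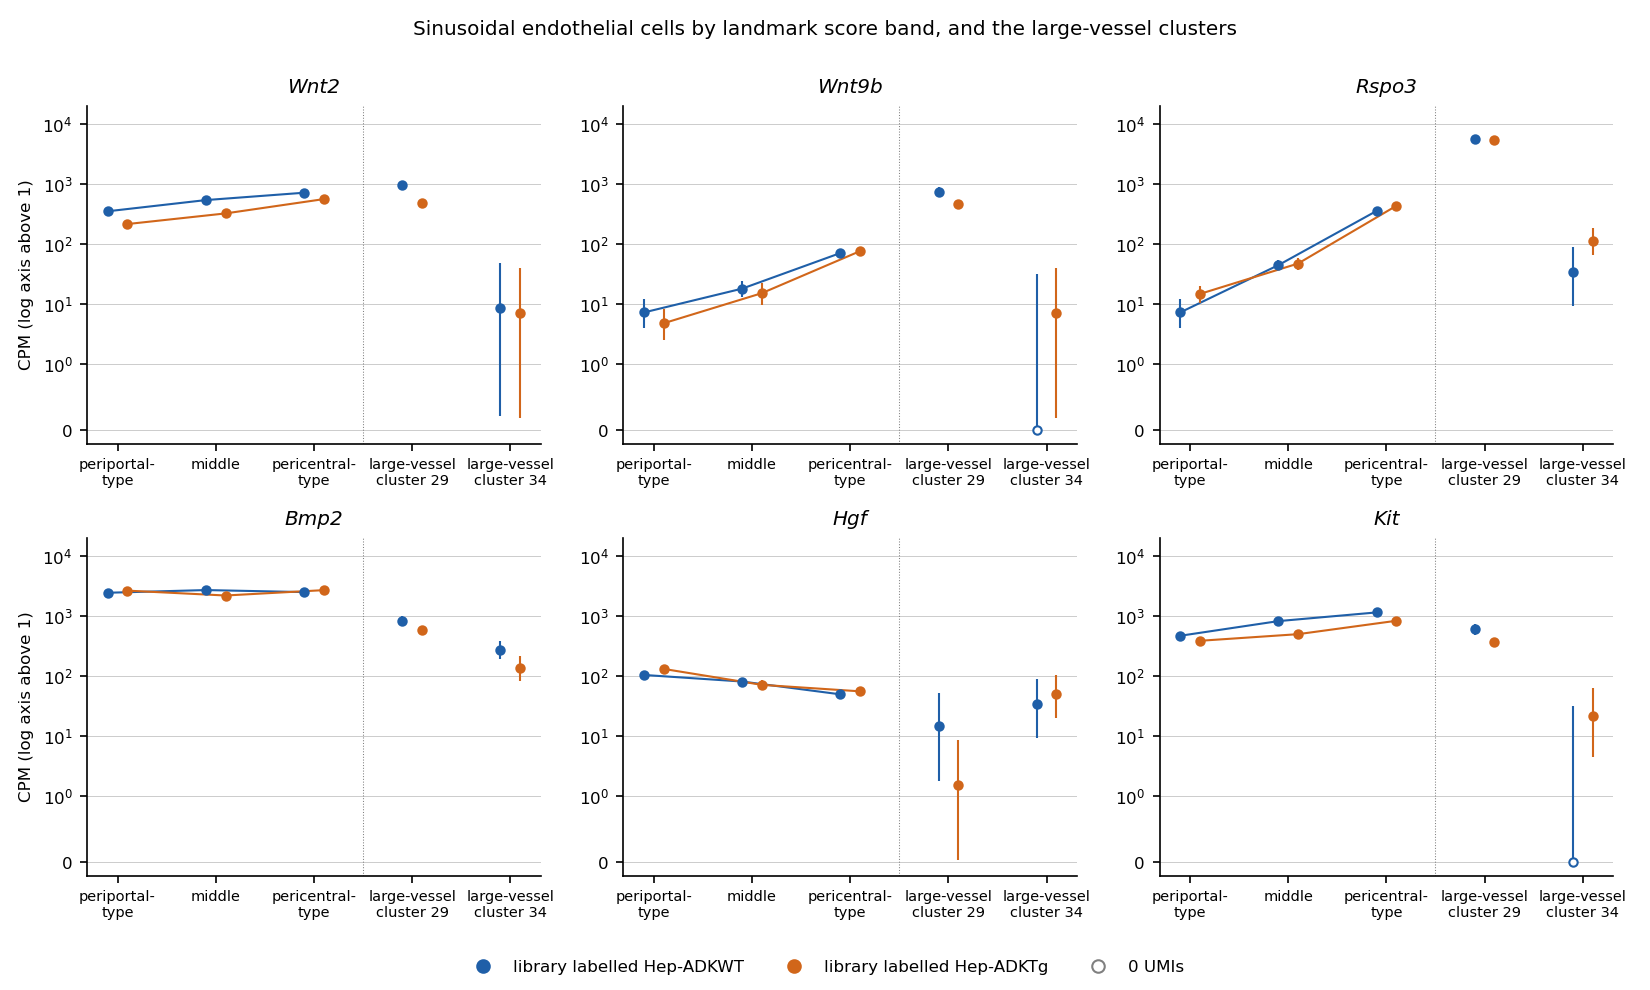
CPM of each gene (log axis above 1) in 3 bands of the sinusoidal endothelial cells by landmark score, and in large-vessel clusters 29 and 34, by library; bars are 95% Poisson intervals and open points mark 0 UMIs. Rspo3, Wnt9b, Wnt2 and Kit are higher in the pericentral-type than in the periportal-type band, Hgf is lower and Bmp2 is flat; cluster 34 has little of Wnt2, Wnt9b and Kit.

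Rspo3 and Wnt9b UMIs were concentrated in few cells, and Hgf UMIs to a lesser degree. The 5% of sinusoidal cells with the most UMIs of a gene held 75.6% and 80.1% of Rspo3 and 71.2% and 84.6% of Wnt9b UMIs, 43.5% and 53.9% of Hgf UMIs, but 20.7% and 28.0% of Wnt2, 21.4% and 26.3% of Kit and 17.6% and 21.6% of Bmp2 UMIs. Such shares also rise for genes with few UMIs, such as Wnt9b and Hgf. With each cell thinned to 1000 UMIs, which leaves 1380 and 1869 sinusoidal cells, Rspo3 was found in 25.9% (15–39.7%) and 44.6% (31.3–58.5%) of cells with a Wnt9b UMI and in 7.62% (6.25–9.18%) and 7.45% (6.28–8.75%) of cells without. Kit was found in 57.4% (53.2–61.5%) and 49.7% (45.4–54.0%) of cells with a Wnt2 UMI and in 45.5% (42.1–49.0%) and 35.6% (33.1–38.3%) of the others. This was not particular to graded genes. Bmp2, flat between the outer bands, was found in 88.6% (85.7–91.1%) against 83.4% (80.6–85.8%) in WT and in 87.2% (84.1–89.8%) against 78.2% (75.8–80.4%) in Tg. In cells with an Rspo3 UMI Bmp2 was found less often, in 78.3% against 86.2% in WT and 71.9% against 81.6% in Tg. Hgf was found in 1.85% (0.0469–9.89%) and 3.57% (0.435–12.3%) of cells with a Wnt9b UMI and in 6.18% (4.95–7.62%) and 7.34% (6.18–8.63%) of the others, intervals that overlap.

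Between the libraries, Wnt2 and Kit were lower in the sinusoidal cells of Tg and the other 4 genes were not, although Rspo3 and Wnt9b turned lower with finer clusters. Wnt2 stood at 551 (534–568) and 377 (363–392) CPM, a Tg over WT ratio of 0.685 (0.652–0.720) or −0.54 on the log2 scale, and Kit at 838 (817–859) and 585 (568–604) CPM, a ratio of 0.699 (0.672–0.727) or −0.52. Hgf had a ratio of 1.15 (1.02–1.29), Rspo3 of 1.22 (1.13–1.32), Wnt9b of 1.01 (0.846–1.21) and Bmp2 of 1.0 (0.984–1.03). No gene of the 6 passed 1.5-fold in either direction, where 6.45% of 10808 genes were lower and 7.36% higher by that much. The median of all genes was −0.13, and Wnt2 and Kit lay at the 7.86 and 9.0 percentiles of all log2 ratios. Totals without hepatocyte-enriched genes gave −0.48 for Wnt2 and −0.46 for Kit, and TMM factors, which raise all ratios by 0.13, gave −0.42 and −0.39. In thinned cells, a Wnt2 UMI was found in 40.8% (38.2–43.4%) and 29.2% (27.1–31.3%) and a Kit UMI in 50.4% (47.7–53.0%) and 39.8% (37.5–42.0%) of sinusoidal cells.

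The difference in Wnt2 and Kit was not the same in all parts of the class. In the deep cluster that is mainly WT, cluster 7, Wnt2 stood at 579 (561–598) and 392 (317–480.4) CPM and Kit at 891 (868–915) and 573 (481–678) CPM. In the deep cluster that is mainly Tg, cluster 4, Wnt2 stood at 424 (359–497) and 427 (409.9–444) CPM and Kit at 584 (508–669) and 661 (640.3–683) CPM, levels that overlap between the libraries. WT cells of cluster 4 had less Wnt2 and Kit than WT cells of cluster 7, whereas in Tg the values were slightly higher in cluster 4, with intervals that overlap. Each cluster holds few cells of the other library (40 and 76). By bands, the ratio for Wnt2 was 0.612 (0.547–0.685) in the periportal-type, 0.599 (0.540–0.664) in the middle and 0.782 (0.732–0.836) in the pericentral-type band, and for Kit 0.824 (0.753–0.902), 0.605 (0.557–0.658) and 0.725 (0.687–0.765). In the periportal-type band Wnt2 alone of 5 genes tested was lower by 1.5-fold (6.08% of all genes) and Rspo3 alone higher (6.31%), the latter from 15 and 37 UMIs. In the middle band Wnt2 and Kit were 2 of 6 (13.9% of all genes), and in the pericentral-type band none of 6 passed in either direction (7.05% lower, 6.13% higher).

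In cluster 29 both Wnt ligands and Kit were lower in Tg while Rspo3 was not. Wnt2 stood at 955 (799–1133) and 481 (430.0–537) CPM, a ratio of 0.504 (0.410–0.622), Wnt9b at 731 (595–888) and 453 (403–507) CPM, a ratio of 0.619 (0.493–0.784), and Kit at 593 (472–736) and 362 (318–411) CPM, a ratio of 0.610 (0.473–0.794). Rspo3 stood at 5599.9 (5212–6009) and 5465 (5289–5646) CPM, a ratio of 0.976 (0.903–1.06), and Bmp2 at 825 (680.4–991) and 570.4 (514–631) CPM, a ratio of 0.692 (0.559–0.860). So 3 of 5 genes tested were lower by at least 1.5-fold, against 14.4% of all genes, and none was higher (14.7%). In thinned cells of the cluster, the share with a UMI was 66.7% (43.0–85.4%) and 42.1% (32.9–51.7%) for Wnt2, 52.4% (29.8–74.3%) and 33.3% (24.8–42.8%) for Wnt9b and 47.6% (25.7–70.2%) and 27.2% (19.3–36.3%) for Kit; these intervals overlap. The WT side rests on 21 cells, whose sampling is not covered by the UMI intervals. In the pooled large-vessel class 0 of 5 genes passed in either direction (12% lower, 10.4% higher), with ratios of 0.764 (0.622–0.942) for Wnt2 and 1.48 (1.37–1.61) for Rspo3.

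Counted without a boundary between the classes, cells rich in Rspo3 made up a larger share of the Tg endothelium. Over all endothelial cells thinned to 1000 UMIs (1419 and 2018), at least 3 Rspo3 UMIs were found in 2.96% (2.14–3.98%) and 6.79% (5.73–7.98%), and at least 1 in 9.58% (8.10–11.2%) and 13.5% (12.1–15.1%). At least 1 Wnt9b UMI was found in 4.58% (3.55–5.80%) and 4.66% (3.78–5.67%), intervals that overlap. At least 3 Wnt2 UMIs were found in 3.31% (2.44–4.38%) and 0.892% (0.529–1.41%), and at least 3 Kit UMIs in 8.67% (7.26–10.3%) and 4.86% (3.96–5.89%). For Bmp2, at least 3 UMIs were found in 42.1% (39.5–44.7%) and 37.6% (35.5–39.8%), intervals that overlap. At least 1 was found in 83.7% (81.7–85.6%) and 76.9% (75.0–78.7%), intervals that do not. The share of cluster 29 among endothelial cells, 1.21% and 4.29%, moves with that of Rspo3-rich cells. With the large-vessel cells joined to the sinusoidal ones, the log2 ratio was 1.32 for Rspo3 and 0.56 for Wnt9b, and with finer clusters, which put 24 and 199 cells in the Rspo3-bearing large-vessel cluster in place of 21 and 114, the sinusoidal ratio was −0.67 for Rspo3 and −0.46 for Wnt9b. The direction for these 2 genes in sinusoidal cells thus differed between settings, for a reason that was not tested, while Wnt2 stayed between −0.69 and −0.41 and Kit between −0.62 and −0.37 in the 14 alternatives run.

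**Figure D4:**
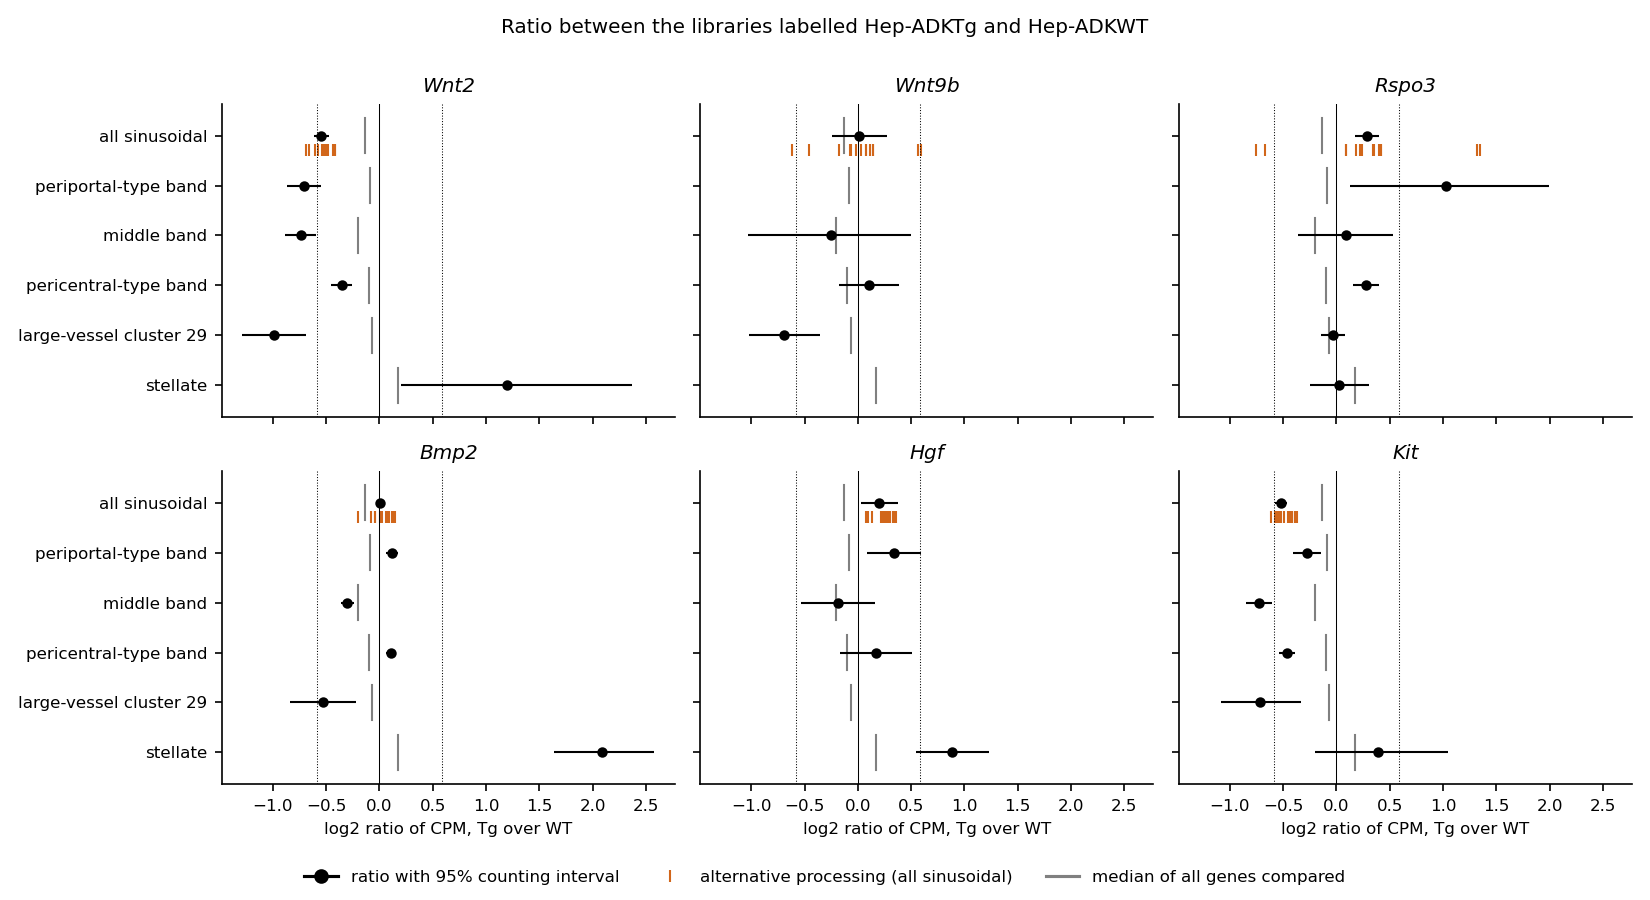
Log2 ratio of CPM, Tg over WT, for each gene in sinusoidal cells, their bands, large-vessel cluster 29 and stellate cells (points with 95% counting intervals; dotted lines at 1.5-fold; grey bars, the median of all genes compared; short orange bars, alternative processing of the sinusoidal ratio). Points are drawn for genes with at least 50 UMIs in the pair; Wnt2 and Kit lie below 0 in all sinusoidal and large-vessel pairs drawn, and the alternatives for Rspo3 fall on both sides of 0.

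In stellate cells Hgf was higher in Tg, 477 (379.6–591) and 877 (810.0–948) CPM, a ratio of 1.84 (1.46–2.34), and Rspo3 was level at 798 and 812 CPM, a ratio of 1.02 (0.844–1.23). In stellate cells thinned to 1000 UMIs (25 and 105 cells), a Hgf UMI was found in 36.0% (18.0–57.5%) and 57.1% (47.1–66.8%), intervals that overlap. Against sinusoidal cells of the same library, Hgf was 6.43-fold (5.04–8.12) and 10.3-fold (9.19–11.5) and Rspo3 5.14-fold (4.28–6.13) and 4.28-fold (3.88–4.72) higher in stellate cells; these are 2 of 6 genes, with 19.2% and 13.7% of all genes higher. The other 4 were lower, with 39% and 22.5% of all genes lower. In WT all 4 passed the minimum number of UMIs only through sinusoidal cells, as did Wnt9b in Tg. That filter sets the place of these genes in the count, so nothing is read from the WT number or from Wnt9b in Tg. Wnt9b had no UMI in WT stellate cells and was at least 2.05-fold lower there against the floor of 3 counts. Between the libraries 3 of 5 genes tested were at least 1.5-fold higher in Tg stellate cells, namely Hgf, Bmp2 and Wnt2, against 26.2% of all genes, and none was lower (9.2%). Bmp2 and Wnt2 passed the minimum number of UMIs only through Tg, so that filter sets their place and nothing is read from this count. Other cells' markers moved with the library in this class: sinusoidal markers summed to 2814 and 7055 CPM, hepatocyte markers to 2722 and 10804, erythroid markers to 26464 and 113 and lymphocyte markers to 1751 and 153. The ratios for Bmp2, 4.26 (3.11–5.98), and Wnt2, 2.29 (1.15–5.18), stand beside the higher sum of sinusoidal markers in Tg, whose part in them was not tested. For Hgf the sinusoidal markers would bring 1.53 and 22.3 of 83 and 637 UMIs. The part of the hepatocyte, erythroid and lymphocyte RNA in its ratio was not tested.

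The genes around these signals in sinusoidal cells differed in direction. The list counts below are of genes at least 1.5-fold apart, as 6.45% of all genes were lower and 7.36% higher in Tg. Wls, which carries Wnt proteins to the cell surface, stood at 247 and 219 CPM, and Bmp6, the partner of Bmp2 in hepcidin control, at 122 and 87.0 CPM, a ratio of 0.713 (0.642–0.791). Of the BMP inhibitors 2 of 5 tested were at least 1.5-fold lower and 1 higher, with a median of −0.56, beside −0.13 for all genes; the intracellular inhibitor Smad6, itself a BMP target, stood at 199 and 116 CPM and Smad7 at 297 and 201 CPM. The higher one was Tmprss6, a hepatocyte protease, with a ratio of 4.30 (3.05–6.21). The BMP receptors had 0 of 8 lower and 1 higher (median −0.25), with Eng at 2093 and 1484 CPM and Bmpr2 at 643 and 564 CPM; the higher one was Tfr2, an iron sensor of hepatocytes. Among BMP targets 1 of 6 was lower and 1 higher (median −0.10), and Id1 and Id3 stood at 159 and 124 CPM and 1400.2 and 1009.8 CPM; the higher one was Hamp, a hepatocyte gene. Wnt and R-spondin receptors had 2 of 8 lower and 1 higher (median −0.16), with the co-receptor Lrp5 at 96.7 and 61.5 CPM and Fzd4 at 281 and 255 CPM. The higher one was Lgr4, with a ratio of 2.22 (1.43–3.51). Lgr4 stood at 4.27 and 9.47 CPM in sinusoidal cells and at 52.7 and 54.1 CPM in hepatocyte-like cells. The part of hepatocyte RNA in its ratio was not tested. Of other ligands of these families, Bmp4 stood at 395 and 425 CPM in large-vessel cells and Rspo1 at 325 and 249.6 CPM in fibroblasts or mesothelial cells. Kitl was spread over several classes, with 230.5 and 129 CPM in fibroblasts or mesothelial cells and 82.2 and 145 CPM in large-vessel cells, besides the sinusoidal level given next. The Kit ligand and signalling genes had 1 of 9 lower and 0 higher (median −0.19), and Kitl stood at 98.6 and 96.7 CPM. Other endothelial angiocrine genes had 2 of 12 lower and 1 higher (median −0.21), and endothelial transcription factors 1 of 15 lower and 1 higher (median −0.06), with Gata4 and Maf at 248 and 197 CPM and 4149 and 3969.8 CPM. Of the pericentral landmarks 1 of 5 was lower, Thbd at 398 and 224 CPM, and 0 higher (median −0.31); of the periportal landmarks 0 of 7 were lower and 1 higher (median −0.11). Lists of hepatocyte genes stood higher in the same Tg cells: 7 of 9 pericentral Wnt targets (median 2.45), 12 of 12 periportal hepatocyte genes (2.28), and 4 of 8 genes of HGF activation and its receptor (1.03), a list that holds plasma proteins made by hepatocytes.

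The receiving side can be read in the hepatocyte-like cells, which numbered 114 and 1821 and are unevenly sampled in these non-parenchymal preparations. The R-spondin receptor Lgr4 stood at 52.7 and 54.1 CPM, the Wnt co-receptor Lrp6 at 39.1 and 38.7 CPM, the HGF receptor Met at 37.0 and 34.8 CPM and the BMP receptor Bmpr1a at 22.7 and 19.2 CPM, with counting intervals of their ratios that include 1 in each case. Fzd4 was lower in Tg, 21.5 and 9.02 CPM, and of 11 Wnt and R-spondin receptors tested 4 were at least 1.5-fold lower and 0 higher. Of the pericentral Wnt targets 4 of 10 were higher in Tg and 0 lower (median 0.49, all genes −0.03; 5.84% higher and 7.5% lower), Cyp2e1 standing at 363 and 615 CPM and Glul at 29.4 and 42.9 CPM. Within clusters this did not hold as one direction. In cluster 10, with periportal genes such as Cyp2f2 among its leading genes, 3 of 8 were higher and 3 lower (5.9% and 7.48% of all genes), Cyp2e1 at 13.7 and 32.4 CPM and Glul at 17.1 and 8.93 CPM. In cluster 26, with pericentral genes such as Cyp1a2 in the lead and 12 WT cells, 1 of 10 was higher, Glul at 124 and 198 CPM, and 2 were lower (17.6% and 13% of all genes), with Cyp2e1 at 3570.1 and 3306 CPM. In the shallow cluster 11, 4 of 8 were higher and 1 lower (24.8% and 20.3% of all genes). Hamp, the target of Bmp2 and Bmp6, stood at 249.8 and 592 CPM in the pooled cells, at 129 and 417 CPM in cluster 10 and at 1403 and 1301 CPM in cluster 26.

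Over 33 profiles (named classes in both libraries, sinusoidal cells as bands), the genes most like each member among 8059 expressed in endothelial cells were ranked by Pearson's r of log2(CPM + 10), as a description in which profiles of a library share depth and free RNA. Wnt2 was most like Lhfpl2, Mmrn2 and Myct1 (all 0.99), and Bmp2 most like Tspan7, Tfpi and Clec4g (all 0.99), Clec4g being a lectin of sinusoidal endothelium. Kit was most like Notch4, Oit3 and Plekhg1 (all 0.97). Wnt9b was closest to Lhx6 (0.98), Selp (0.95) and Amigo2 (0.92), of which Selp is the adhesion molecule P-selectin. Rspo3 was closest to Plvap (0.91), Shisa9 (0.87) and Ntn1 (0.87), Plvap being a protein of endothelial diaphragms. Hgf, spread over unlike classes, had the lowest values, with Hlx (0.84), Prkg1 (0.81) and Fer (0.80).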

How the data were processed

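The authors deposited raw counts of UMIs for each gene and barcode, with 1 library to a group. Per the submitters' processing notes, the authors processed reads with Cell Ranger 6.1.2 against GRCm38/mm10 and used Seurat 4.0.2 and R 4.1.0; the matrix headers name version 5.0.1. The series text names SoupX and Harmony, but the deposited counts are whole numbers and were taken to be uncorrected for free RNA.

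Barcodes with at least 500 UMIs, 200 genes and at most 20% mitochondrial UMIs were kept. Scrublet's automatic threshold marked 0 cells in each library and had not worked; cells scoring above 0.2 were removed (479 and 404, 3.70% and 2.72%). After leaving out the 6 genes, 2000 variable genes, 30 principal components and 15 neighbours gave Leiden clusters at resolution 1.0 (scanpy 1.11.5, leidenalg 0.10.2, Python 3.11.15). Clusters were named from the marker lists by mean enrichment, with 3 or more enriched markers required. They also stayed unnamed where the 10 leading genes held more markers of another class. With none of its own markers among those 10, a cluster stayed unnamed if it was shallow for its library or the enriched share of its markers was under 0.5. Unnamed cells numbered 1604 and 4502, or 12.9% and 31.2% of kept cells, with medians of 1352 and 891 UMIs. These rules were set after the clusters had been seen, and names may differ from the study's own. T and NK or ILC1 markers were pooled.

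UMIs were summed per class and library and scaled to CPM. Cells are not replicates, so no test was made. CPM carry exact Poisson, shares Clopper-Pearson and ratios exact conditional binomial 95% intervals; with 0 UMIs a floor of 3 counts was used. The interval code was tested on simulated data. Genes with at least 50 UMIs in a pair were compared at 1.5-fold. Named genes are the 6 members, a list of pathway genes, and for each member the 3 genes of highest correlation. The members, gene lists and markers were chosen with earlier results of these data known. Alternatives covered scaling (edgeR 4.0.16 TMM, DESeq2 1.42.0 size factors), filters, thinning, class membership, resolution and the score's division. Of 32285 identifiers, 32158 were found in GENCODE M21.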

Additional observations from a re-analysis of the deposited data

How the results depend on the processing

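The counts of genes higher in large-vessel cells (2 of 6) and in the pericentral-type band (4 of 6) kept their value in both libraries under all alternatives run, except that 3 of 6 were higher in large-vessel cells once the 6 genes were allowed among the variable genes, Wnt2 being the added one. In the pericentral-type count the filter on UMIs sets the place of Rspo3 and Wnt9b. Clusters at resolution 0.5 held no large-vessel class, so the comparison with large-vessel cells was not run there. The number of genes lower in Tg sinusoidal cells was 0 in the result as reported; it was 1 with cells thinned to 1000 UMIs, 2 as a mean over cells, 1 at resolution 2.0 and 3 with the 6 genes among the variable genes. Wnt2, Kit and Hgf kept the sign of their Tg over WT ratio in 14 of 14 alternatives, with Hgf between 0.08 and 0.36; Wnt9b ranged from −0.62 to 0.59. Rspo3 turned to −0.67 at resolution 2.0 and to −0.76 with the 6 genes among the variable genes. In that last setting Kit turned to 0.29 in WT and 0.19 in Tg for large-vessel over sinusoidal, and Hgf turned to 0.55 in WT with thinned cells, where few UMIs are left. The cause of these changes was not tested. TMM and DESeq2 factors raised all Tg over WT ratios by 0.13. Leaving out the shallow sinusoidal clusters, an alternative chosen after seeing the data, gave −0.43 for Wnt2 and −0.41 for Kit. With all genes that have a UMI, 16.9% were lower and 18.3% higher by 1.5-fold. No paired analysis was possible because each group is 1 library. Depth limits Wnt9b and Hgf in sinusoidal cells (253 to 603 UMIs) and all 6 genes in cluster 34, where Rspo3 has 4 and 16 UMIs.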
